A study of Mus musculus with 8 samples.

Results

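The genes described here encode the Nodal, activin, TGF-beta and BMP signalling system. They were chosen by name: a list of 40 ligands, secreted inhibitors, receptors, Smad proteins, Smad partners and Id targets was matched to the gene symbols of the array annotation. Of the 40 genes, 39 had a probe, and 33 were detected on at least 1 of the 8 arrays, against 8973 detected genes of 16593 in all. Detected means a detection p under 0.01, the chance that the array's background alone would give a signal at least as high as the probe's. The detected members comprised 13 of 16 ligands and secreted inhibitors, 8 of 11 receptors and co-receptors, 8 of 9 Smads and partners, and 4 of 4 Id genes. On all 8 arrays 18 of them were detected, 11 on 2 to 7 arrays, and 4 on 1 array. Inha, Bmp2, Bmp8b, Bmpr2, Acvr1b and Acvrl1 were detected on no array, and Smad7 is not analysed here.

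Ligands of this family bind pairs of type I and type II receptor kinases at the cell surface. Nodal, activin and TGF-beta signals pass through Smad2 and Smad3, and BMP signals through Smad1 and Smad5, and both sets enter the nucleus with Smad4. In the mouse embryo Nodal keeps the epiblast pluripotent and patterns it, and Bmp4 from the neighbouring extraembryonic ectoderm induces primordial germ cells (PGCs). In mouse embryonic stem cells (ESCs) BMP acts with LIF to hold the naive state through the Id genes, whereas epiblast stem cells (EpiSCs), taken from the implanted embryo, depend on activin or Nodal.

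Bead arrays (Illumina MouseRef-8 v2) measured the RNA. Wt ESCs and Gcnf-deficient (Gcnf-/-) ESCs, both carrying the Oct4-GFP(ΔPE) reporter, had 1 array each, as did the PGCs derived from each of them in vitro on day 12 and on day 15. EpiSCs, labelled as not knocked out for Gcnf, had 2 arrays, and all 8 samples are labelled C57BL/6. Gcnf (Nr6a1) is an orphan nuclear receptor that represses Oct4. ESCs were grown on irradiated fibroblast feeders with LIF, and PGCs are the GFP-positive cells sorted from cultures kept without either, so the sort itself selects for Oct4 promoter activity. The sources used here do not say how the EpiSCs were grown or whether they carried the reporter. The wt lines were male and female and the Gcnf-deficient line female, but which line was used for which array is unstated, so genotype and line cannot be told apart. The characteristics name PGC as the cell type of every sample, and the stage was therefore taken from the titles.

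Several arrays stood apart in ways that touch the values below. The fibroblast list had 15 of 18 measured markers detected on the wt ESC array, with a summed linear signal of 23386, against 8 and 2968 on the Gcnf-deficient ESC array and 3 or 4 and 859 to 1787 on the other 6. Y-linked genes summed to 3310 on the wt day-12 array, where 2 of 3 were detected, and to between 45.9 and 109 on all others. The naive list had 7 or 8 of 9 genes detected on each ESC and PGC array and 0 or 1 on the EpiSC arrays, and the primed epiblast list summed to 50862 and 49582 in EpiSCs against 3323 to 13157 elsewhere. PGC markers summed to 28572 and 27980 in wt PGCs and to between 14785 and 16578 in Gcnf-deficient PGCs. The probe for Nr6a1 was detected on all 8 arrays, from 9.64 to 12.46 in log2, and since its place relative to the deleted part is not given it does not check the labels.

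With 1 array per condition outside the EpiSCs, comparisons among those conditions have no replicates and no test, and their sizes are given on the log2 scale or as folds. Values are normalized log2 signals throughout, and the lowest detected signal lay between 5.38 and 6.03 depending on the array. The only measure of spread within a condition is the EpiSC pair, which may be a technical duplicate: its log2 differences had an SD of 0.26 over the 9638 probes detected on both arrays, and the 25 members detected on both differed by at most 0.41. Where p-values are given, limma treated arrays of different stages or genotypes as replicates of one another, so they measure only the spread between these arrays. The plot of all detected members shows which genes were near background on which array.

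**Figure D1:**
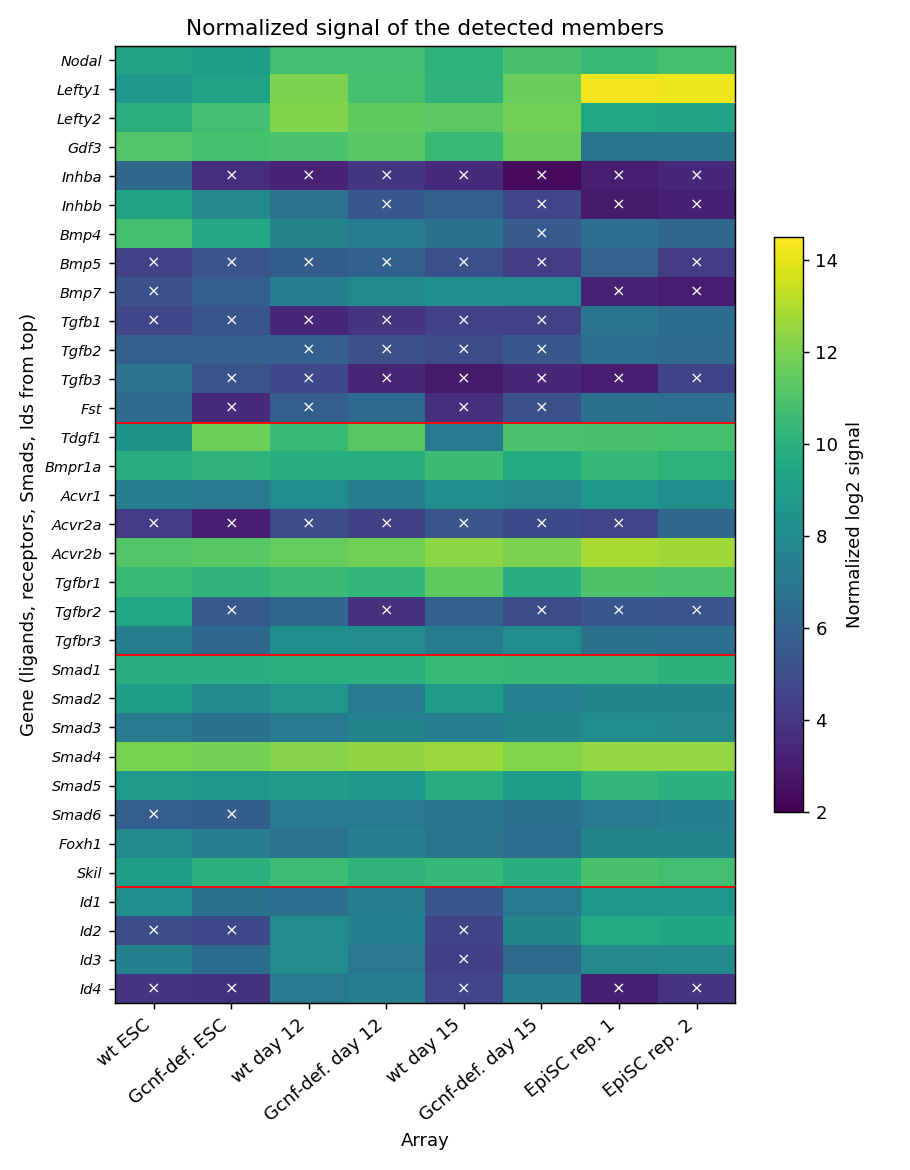
Normalized log2 signal of the 33 detected members (rows, in the order ligands, receptors, Smads and Id genes, separated by red lines) on each of the 8 arrays (columns); a cross marks a signal that was not detected. Lefty1 has its highest signals in EpiSCs, 14.27 and 14.16, and the crosses of Id2, Id3 and Id4 on the wt day-15 array stand beside detected signals in wt day-12 PGCs.

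Nodal, the ligand that gives the pathway its name, was expressed on every array. Its signal was 9.30 in wt ESCs and 8.96 in Gcnf-deficient ESCs, 10.72 and 10.77 in wt and Gcnf-deficient day-12 PGCs, 10.07 and 10.93 in day-15 PGCs, and 10.47 and 10.85 in EpiSCs. Both ESC arrays were thus below all 6 others. Nodal rose in EpiSCs over ESCs by 1.62 ± 0.38 (limma estimate ± SE, adjusted p = 0.0284), a call that was lost without either EpiSC array (adjusted p = 0.094 and 0.149), without the wt ESC array (adjusted p = 0.0528) and without the wt day-12 array (adjusted p = 0.0527). In PGCs it was higher than in ESCs by 1.61 on day 12 and 1.37 on day 15, neither past the threshold (limma, adjusted p = 0.206 and 0.153), though on day 15 it passed with a background offset of 50 (adjusted p = 0.0477) and with an intensity trend (adjusted p = 0.045). Because RNA was taken from whole populations, fewer expressing cells and less RNA per cell cannot be told apart for any of these genes.

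Gdf3, a ligand that acts with Nodal through the same co-receptor, was bright in ESCs and PGCs and low in EpiSCs. It gave 11.15 and 10.89 in wt and Gcnf-deficient ESCs, 10.95 and 11.28 on day 12, 10.49 and 11.67 on day 15, and 6.83 and 6.91 in EpiSCs. The EpiSC arrays lay more than 3 log2 units below the lowest of the other 6. Gdf3 fell by 3.94 ± 0.40 in EpiSCs against ESCs (limma, adjusted p = 0.00223) and by 4.0 ± 0.40 against day-15 PGCs (limma, adjusted p = 0.00179), a 19.4-fold difference from wt ESCs and a 12.3-fold difference from wt day-15 PGCs.

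Lefty1 and Lefty2, secreted inhibitors of Nodal that are themselves targets of Nodal signalling, went opposite ways in EpiSCs against day-15 PGCs. Lefty1 gave 8.67 and 9.21 in wt and Gcnf-deficient ESCs, 12.02 and 10.85 on day 12, 10.15 and 11.64 on day 15, and 14.27 and 14.16 in EpiSCs. It was lowest in both ESCs, intermediate in all PGCs and highest in EpiSCs, with no overlap between these kinds of cell. In EpiSCs it rose by 5.42 ± 0.64 over ESCs (limma, adjusted p = 0.00344) and by 3.47 ± 0.64 over day-15 PGCs (limma, adjusted p = 0.011). Set against single arrays, EpiSCs were 46.5-fold above wt ESCs and 16.8-fold above wt day-15 PGCs.

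Lefty2 gave 9.91 and 10.69 in wt and Gcnf-deficient ESCs, 12.12 and 11.38 on day 12, 11.36 and 11.83 on day 15, but only 9.45 and 9.30 in EpiSCs. All PGC arrays were above all ESC and EpiSC arrays. Lefty2 fell by 2.14 ± 0.43 in EpiSCs against day-15 PGCs (limma, adjusted p = 0.0144), opposite in sign to Lefty1, and this call was lost without either EpiSC array (adjusted p = 0.0619 and 0.0706). The genes are close paralogs, and cross-hybridization between their probes was not tested. Wt day-12 PGCs had 10.1-fold more Lefty1 and 4.64-fold more Lefty2 signal than wt ESCs, and Gcnf-deficient day-15 PGCs had 5.38-fold more Lefty1 than their ESCs.

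Tdgf1 (Cripto), the membrane-anchored co-receptor through which Nodal and Gdf3 reach their receptors, was higher in Gcnf-deficient than in wt cells at each stage. It gave 8.49 in wt ESCs and 11.73 in Gcnf-deficient ESCs, 10.44 and 11.32 on day 12, 7.17 and 10.96 on day 15, and 10.93 and 10.84 in EpiSCs. The wt ESC and wt day-15 arrays were the lowest, and the wt day-12 array, which also carried the Y-linked signal, was close to the Gcnf-deficient arrays. A second Tdgf1 probe gave 6.68 and 9.77 in ESCs, 9.13 and 9.32 on day 12, 5.48 and 9.01 on day 15, and 8.97 and 8.28 in EpiSCs, the same high and low arrays. Gcnf-deficient cells were 9.50-fold higher in ESCs and 13.8-fold higher on day 15, and the difference across the 3 stages was 2.64 ± 0.58 (limma, adjusted p = 0.199). That difference passed with a background offset of 50 (adjusted p = 0.034) and with an intensity trend (adjusted p = 0.023). Against day-15 PGCs at the wt genotype, Tdgf1 rose in EpiSCs by 3.14 ± 0.72 (limma, adjusted p = 0.0211). That call was lost without either EpiSC array (estimates of 3.10 and 3.19). Gcnf-deficient day-15 PGCs, at 10.96, were not below EpiSCs. The values of these genes are drawn array by array in the plot of the Nodal and activin branch.

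**Figure D2:**
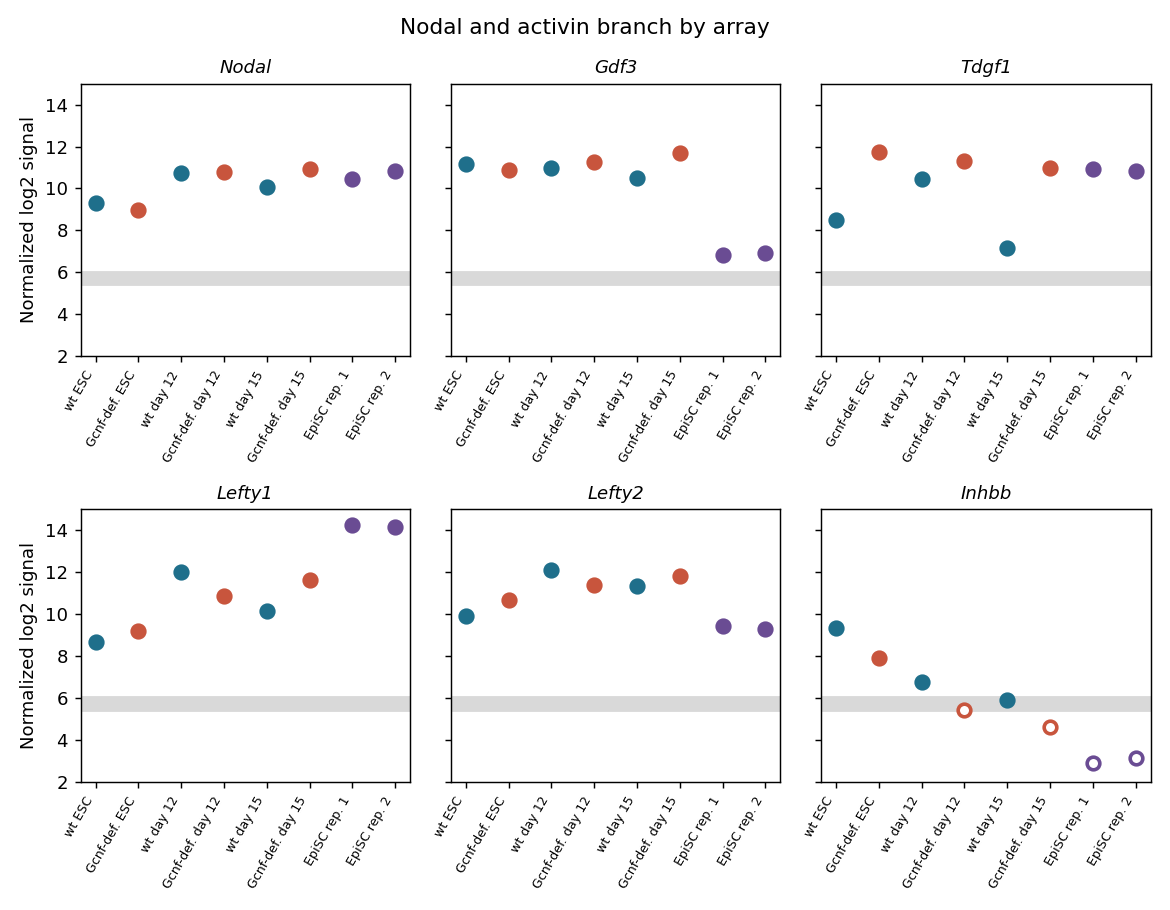
Normalized log2 signal (y axis) of Nodal, Gdf3, Tdgf1, Lefty1, Lefty2 and Inhbb on each array (x axis), 1 point per array: wt in blue, Gcnf-deficient in orange, EpiSC in purple, open circles not detected; the grey band spans the lowest detected signals of the 8 arrays, 5.38 to 6.03. Tdgf1 is lowest on the wt ESC (8.49) and wt day-15 (7.17) arrays, and Inhbb is highest on the ESC arrays (9.32 and 7.90) and not detected in EpiSCs.

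Among the activin and inhibin subunits, Inhbb, which encodes the beta-B chain of activin B, was detected in ESCs and wt PGCs. It gave 9.32 in wt ESCs and 7.90 in Gcnf-deficient ESCs, 6.74 on day 12 and 5.88 on day 15 in wt PGCs, and it was not detected in Gcnf-deficient PGCs of either day or in EpiSCs. At each stage the wt array was the brighter. Inhbb fell by 3.36 ± 0.32 in day-15 PGCs against ESCs (limma, adjusted p = 0.0428, and 0.0616 without the wt day-12 array). In EpiSCs it fell by 6.27 ± 0.26 against ESCs (limma, adjusted p = 0.000253), which as a bound from detected signals is at least 10.2-fold below wt ESCs. Against day-15 PGCs it fell by 2.91 ± 0.26 (limma, adjusted p = 0.00125). The wt day-15 signal of 5.88 was below the lowest detected signals of the EpiSC arrays (5.91 and 6.03), so no fold is given there.

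Inhba, the beta-A chain of activin A, was detected only in wt ESCs, at 6.24, at least 1.45-fold above Gcnf-deficient ESCs. Fst, whose product follistatin traps activins, was detected in wt ESCs (6.35), Gcnf-deficient day-12 PGCs (6.27) and EpiSCs (6.66 and 6.49), each just above the detection limit. The alpha chain gene Inha was below detection everywhere, as were the BMP ligands Bmp2 and Bmp8b. The Inhba signal and the wt ESC signal of Fst stood on the array with the fibroblast markers, whose part in them was not tested.

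Bmp4, the inducer of PGC fate in the embryo, was highest in ESCs. It gave 10.79 in wt ESCs and 9.56 in Gcnf-deficient ESCs, 7.61 and 7.22 on day 12, 6.69 in wt day-15 PGCs and 6.59 and 6.18 in EpiSCs, and was not detected in Gcnf-deficient day-15 PGCs. Both ESC arrays were above all others, and day-12 PGCs of both genotypes were above day-15 PGCs. On day 15 Bmp4 fell by 4.01 ± 0.36 against ESCs (limma, adjusted p = 0.0428), and the call was lost without the wt day-12 array (adjusted p = 0.0605) but not without the wt ESC array (adjusted p = 0.0345). In EpiSCs it fell by 4.23 ± 0.34 (limma, adjusted p = 0.00111), 21.2-fold below wt ESCs and 9.02-fold below Gcnf-deficient ESCs.

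Bmp7, a ligand that binds the same kinds of receptor, had the opposite course between ESCs and PGCs. It was not detected in wt ESCs, gave 5.74 in Gcnf-deficient ESCs, 7.34 and 7.95 on day 12 and 8.16 and 8.06 on day 15 in wt and Gcnf-deficient PGCs, and was not detected in EpiSCs. The 4 PGC arrays were above the other 4. Its difference between day-15 PGCs and ESCs, 2.68 ± 0.36, missed the threshold (limma, adjusted p = 0.0572), and it was at least 5.23-fold in wt cells. It passed with the deposited table (adjusted p = 0.0277), with each other background correction (adjusted p between 0.0131 and 0.0299) and with an intensity trend (adjusted p = 0.00568). In EpiSCs Bmp7 fell by 4.82 ± 0.31 against day-15 PGCs (limma, adjusted p = 0.000528), at least 4.57-fold. It also passed the test against ESCs at −2.14 ± 0.31 (limma, adjusted p = 0.00673, 0.052 without EpiSC replicate 2 and 0.123 without background correction), but its signal was below detection in EpiSCs and wt ESCs alike, so no fold is given there. Bmp5, a further BMP ligand, was detected on 1 EpiSC array only, at 5.99.

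The 3 TGF-beta ligands lay near the detection limit. Tgfb1 was detected only in EpiSCs, at 6.81 and 6.42, where it rose by 1.82 ± 0.31 over ESCs (limma, adjusted p = 0.0106) and by 2.36 ± 0.31 over day-15 PGCs (limma, adjusted p = 0.00394), at least 2.35-fold over wt day-15 PGCs. The call against ESCs was lost without EpiSC replicate 1 (adjusted p = 0.084) and without the wt ESC array (adjusted p = 0.0799). Tgfb2 was detected in both ESCs (5.79 and 5.85) and in EpiSCs (6.50 and 6.35) and in no PGCs. It rose in EpiSCs over day-15 PGCs by 1.22 ± 0.37 (limma, adjusted p = 0.0474). That call was lost with an offset of 50, without background correction and with median scaling (limma, adjusted p = 0.0863, 0.115 and 0.0562). A run without a detection filter and one with an intensity trend also lost it (limma, adjusted p = 0.0897 and 0.075). So did leaving out EpiSC replicate 1, EpiSC replicate 2 or the wt ESC array (estimates of 1.15, 1.30 and 1.19). Tgfb3 was detected in wt ESCs alone, at 6.76, on the array with the fibroblast markers, whose part in it was not tested. In EpiSCs against ESCs Tgfb3 fell by 2.63 ± 0.72 (limma, adjusted p = 0.0443). That call was lost with median scaling and without a detection filter (limma, adjusted p = 0.0507 and 0.0584). It was also lost without EpiSC replicate 1 (estimate −1.86), without the wt day-12 array (estimate −2.48) or without the Gcnf-deficient arrays (estimate −2.97).

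The type II receptor gene Acvr2b was detected on every array. Its product binds activin, Nodal and several BMPs. Acvr2b gave 11.16 and 11.27 in wt and Gcnf-deficient ESCs, 11.53 and 11.86 on day 12, 12.33 and 12.04 on day 15, and 12.88 and 12.71 in EpiSCs. The EpiSC arrays were above all others, and Acvr2b rose by 1.60 ± 0.29 over ESCs (limma, adjusted p = 0.0125), a call lost without EpiSC replicate 1, EpiSC replicate 2 or the wt ESC array (adjusted p = 0.0965, 0.0728 and 0.076). Its relative Acvr2a was detected on 1 EpiSC array only, at 6.14, and the type II receptor of BMPs, Bmpr2, on none.

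The type I receptor genes spanned narrow ranges. Bmpr1a, a BMP receptor, lay between 9.69 and 10.57 on all 8 arrays, and Acvr1, which also carries BMP signals, between 7.19 and 8.56. Tgfbr1, the type I receptor of TGF-beta, lay between 9.91 and 11.38 with its highest signal in wt day-15 PGCs, whereas another Tgfbr1 probe gave its highest signals in EpiSCs (8.12 and 7.03), so these probes did not share a pattern. The type I receptor genes Acvr1b (activin and Nodal) and Acvrl1 (endothelial BMP signalling) were below detection. Tgfbr3 (betaglycan), a co-receptor, lay between 6.16 in Gcnf-deficient ESCs and 8.24 in wt day-12 PGCs.

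Tgfbr2, the TGF-beta type II receptor, was detected in wt ESCs and wt PGCs only. These gave 9.43 as ESCs, 6.17 on day 12 and 5.87 on day 15, and Tgfbr2 was detected neither in any Gcnf-deficient cells nor in EpiSCs. Wt ESCs were at least 13.2-fold above Gcnf-deficient ESCs, 9.52-fold above PGCs of the same genotype on day 12 and 11.7-fold above those on day 15. Tgfbr2 fell by 3.34 ± 0.67 in EpiSCs against ESCs (limma, adjusted p = 0.0183). That call did not hold without either EpiSC array (adjusted p = 0.0697 and 0.0723) or without the wt ESC array, when the estimate was −1.87 (adjusted p = 0.105). The fibroblast list was also highest on the wt ESC array, at a summed signal of 23386 against 2968 in Gcnf-deficient ESCs, and its part in the Tgfbr2 signal was not tested.

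Smad2, one of the receptor-activated Smads of the Nodal and activin arm, differed between genotypes in the same direction at every stage. It gave 9.03 in wt and 7.97 in Gcnf-deficient ESCs, 8.54 and 7.22 on day 12, 8.85 and 7.56 on day 15, and 7.74 and 7.64 in EpiSCs. Every wt ESC or PGC array was above every Gcnf-deficient and EpiSC array. The differences of −1.05, −1.32 and −1.29 gave a mean of −1.22 ± 0.26 that missed the threshold (limma, adjusted p = 0.196). Against wt-level ESCs and day-15 PGCs, Smad2 fell in EpiSCs by 1.42 ± 0.26 (limma, adjusted p = 0.0129) and by 1.12 ± 0.26 (limma, adjusted p = 0.0209), and each call was lost without either EpiSC array (adjusted p between 0.0911 and 0.142).

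Its partner Smad3 lay between 6.68 in Gcnf-deficient ESCs and 8.10 in an EpiSC array. Smad4, the shared Smad, lay between 11.87 and 12.64. In the BMP arm Smad1 lay between 9.85 and 10.49, and Smad5 gave 8.82 and 8.61 in wt and Gcnf-deficient ESCs, 8.92 and 8.67 on day 12, 9.78 and 9.0 on day 15, and 10.24 and 9.99 in EpiSCs. Smad5 rose in EpiSCs over ESCs by 1.19 ± 0.29 (limma, adjusted p = 0.0324, and 0.0758 without a detection filter). The call was lost when any of EpiSC replicate 1, EpiSC replicate 2, the wt ESC array or the wt day-12 array was left out (adjusted p = 0.202, 0.128, 0.171 and 0.0563), and other Smad5 probes differed from each other. One, detected on all 8 arrays, gave 7.85 and 7.57 in wt and Gcnf-deficient ESCs and 8.66 and 8.56 in EpiSCs, and the other was detected in wt ESCs (6.43) and not in EpiSCs.

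Smad6, an inhibitory Smad that damps BMP signalling and is itself induced by it, was below detection in both ESCs. It gave 7.12 and 7.19 in wt and Gcnf-deficient day-12 PGCs, 6.92 and 6.71 on day 15, and 7.18 and 7.49 in EpiSCs. Smad6 rose in EpiSCs over ESCs by 1.58 ± 0.27 (limma, adjusted p = 0.0108, and between 0.0605 and 0.0933 without either EpiSC array or the wt ESC array). A second Smad6 probe was detected in wt ESCs (5.84), was highest in wt day-15 PGCs (7.39) and was detected on 1 EpiSC array (6.16), so the probes did not share a pattern. The differences from ESCs of 1.43 on day 12 and 1.09 on day 15 missed the threshold (limma, adjusted p = 0.181 and 0.153). Foxh1, the DNA-binding partner of Smad2 and Smad4, lay between 6.47 and 7.93, and Skil (SnoN), a repressor that Smads bind, between 8.94 in wt ESCs and 10.89 in an EpiSC array.

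The Id genes, which encode inhibitors of basic helix-loop-helix factors and are direct BMP targets, were all at their lowest among PGCs on the wt day-15 array. Promoters are shown for the Id genes that were not detected in wt day-15 PGCs, and for Smad6 as another gene of the BMP feedback loop. Each runs 5′ to 3′ on the gene's strand from 250 bases before to 50 bases after its start, from RefSeq on GRCm38.p6. Capitals mark a site that Smad proteins are known to bind: GGCGCC, bound by Smad1 and Smad5, or GTCTAGAC, the palindrome of Smad3 and Smad4. Id2 lies at chr12:25096043-25096342 on the minus strand, Id3 at chr4:136143572-136143871 on the plus strand, Id4 at chr13:48260866-48261165 on the plus strand and Smad6 at chr9:64022010-64022309 on the minus strand.
Id2: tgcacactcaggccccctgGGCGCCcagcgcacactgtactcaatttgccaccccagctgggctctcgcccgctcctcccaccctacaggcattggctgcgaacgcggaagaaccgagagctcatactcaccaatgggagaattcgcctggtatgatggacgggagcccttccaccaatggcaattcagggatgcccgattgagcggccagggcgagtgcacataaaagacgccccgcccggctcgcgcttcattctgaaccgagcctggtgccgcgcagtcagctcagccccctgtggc
Id3: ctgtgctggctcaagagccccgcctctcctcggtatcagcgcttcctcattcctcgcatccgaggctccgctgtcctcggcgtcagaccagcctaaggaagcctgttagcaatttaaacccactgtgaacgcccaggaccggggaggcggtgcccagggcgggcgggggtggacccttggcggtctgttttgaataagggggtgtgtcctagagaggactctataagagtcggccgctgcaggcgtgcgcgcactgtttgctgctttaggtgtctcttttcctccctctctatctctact
Id4: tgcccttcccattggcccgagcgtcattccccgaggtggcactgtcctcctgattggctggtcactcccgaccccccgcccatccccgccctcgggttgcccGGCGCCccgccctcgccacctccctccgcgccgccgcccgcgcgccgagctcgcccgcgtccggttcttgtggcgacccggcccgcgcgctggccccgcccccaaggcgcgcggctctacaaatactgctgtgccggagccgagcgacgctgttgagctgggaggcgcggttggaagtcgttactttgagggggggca
Smad6: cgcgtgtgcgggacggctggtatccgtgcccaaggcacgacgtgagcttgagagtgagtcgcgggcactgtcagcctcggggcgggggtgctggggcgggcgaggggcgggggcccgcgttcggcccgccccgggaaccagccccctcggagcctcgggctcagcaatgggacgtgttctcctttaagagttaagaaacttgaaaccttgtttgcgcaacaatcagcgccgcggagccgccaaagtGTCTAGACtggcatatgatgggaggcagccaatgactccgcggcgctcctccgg

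The GGCGCC match began 231 bases before the start of Id2 and 148 bases before that of Id4, the GTCTAGAC match began 4 bases before the start of Smad6, and the Id3 window held neither. Promoter windows, 28 in all, were at hand for 25 of the members. GGCGCC was present in 8 of the 28 windows, from 7 members (Acvr1b, Bmpr1a, Bmpr2, Id2, Id4, Smad5 and Tgfbr1), against 11.9% of all 32851 windows. GTCTAGAC was present in 1, that of Smad6, against 0.213%. Both motifs read the same on either strand. TCAAGGTCA, the core of the direct repeat that Gcnf binds, searched on both strands, was in 0 of the 28 windows and in 0.423% of all windows. These are matches of letters in a short window and say nothing about binding.

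Id2 was not detected in either ESC, gave 8.02 and 7.49 in wt and Gcnf-deficient day-12 PGCs, was not detected in wt day-15 PGCs, gave 7.72 in Gcnf-deficient day-15 PGCs, and reached 9.64 and 9.38 in EpiSCs. Id4 was detected only in PGCs, at 7.06 and 7.38 on day 12 and at 7.39 in Gcnf-deficient day-15 PGCs, and was missing from wt day-15 PGCs as well. Id3 gave 7.48 and 6.42 in wt and Gcnf-deficient ESCs, 8.03 and 6.95 on day 12, 6.31 in Gcnf-deficient day-15 PGCs and 7.90 and 8.00 in EpiSCs, and was not detected in wt day-15 PGCs. All 3 were thus below detection on the wt day-15 array and detected in wt day-12 and in Gcnf-deficient PGCs of both days.

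Id1, the fourth gene, was detected everywhere. It gave 8.24 and 6.69 in wt and Gcnf-deficient ESCs, 6.56 and 7.39 on day 12, 5.39 and 7.03 on day 15, and 8.55 and 8.58 in EpiSCs, and its lowest signal was again on the wt day-15 array. Against wt day-12 PGCs, wt day-15 PGCs were at least 6.23-fold lower for Id2, at least 6.26-fold for Id3 and at least 3.21-fold for Id4, and the median difference of the 4 genes was −2.95, against 0.10 over all genes. In Gcnf-deficient PGCs the same median was −0.17. Gcnf-deficient day-15 PGCs were at least 5.05-fold above wt day-15 PGCs for Id2, at least 4.04-fold for Id4, at least 1.91-fold for Id3 and 3.13-fold for Id1. The median of the 4 genes was 2.37, against −0.08 over all genes. The medians take undetected signals at face value, so none of them is a bound.

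These contrasts rest on 1 wt day-15 array, and the wt day-12 array they are set against carried the Y-linked signal, whose part in them was not tested. The genotype difference across the 3 stages was −0.06 to 0.99 for the 4 genes, with limma adjusted p between 0.491 and 0.976. In EpiSCs, Id2 rose by 5.06 ± 0.92 over ESCs (limma, adjusted p = 0.0135), at least 13.3-fold over wt ESCs, and by 3.77 ± 0.92 over day-15 PGCs (limma, adjusted p = 0.0259). Id1 rose over day-15 PGCs by 2.51 ± 0.76 (limma, adjusted p = 0.0493), and Id3 with 2.58 ± 0.80 did not pass (limma, adjusted p = 0.0509). The Id1 call was lost with median scaling and without a detection filter (limma, adjusted p = 0.0531 and 0.0656). Id3 passed with the deposited table, with each other background correction and with an intensity trend (adjusted p between 0.0188 and 0.0353), without the Gcnf-deficient arrays (adjusted p = 0.00528) and without the wt ESC array (adjusted p = 0.045). The Id2 call against ESCs was lost without EpiSC replicate 1 or the wt ESC array (adjusted p = 0.0546 and 0.0519), and the calls of Id1 and Id2 against day 15 without either EpiSC array (adjusted p between 0.075 and 0.138), that of Id1 also without the wt day-12 array (adjusted p = 0.0976).

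**Figure D3:**
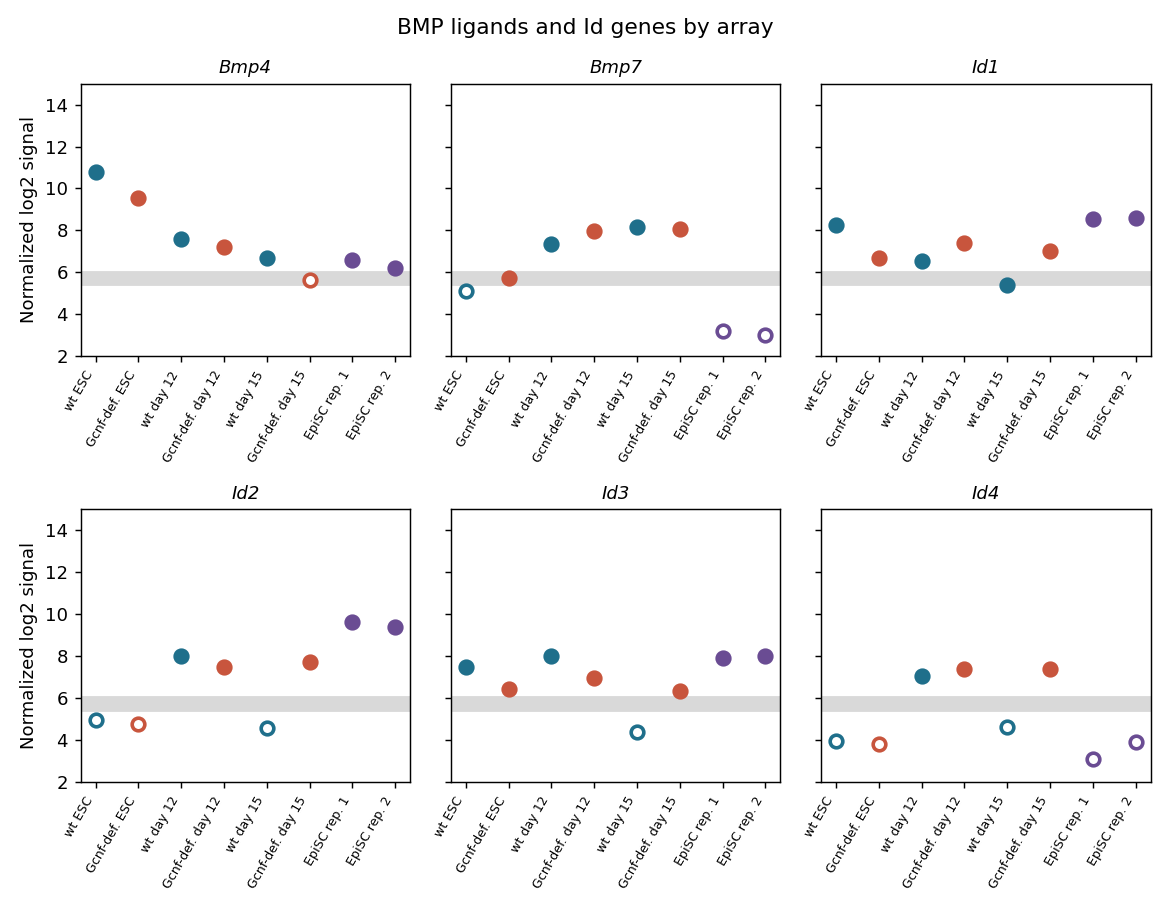
Normalized log2 signal (y axis) of Bmp4, Bmp7 and the 4 Id genes on each array (x axis), 1 point per array: wt in blue, Gcnf-deficient in orange, EpiSC in purple, open circles not detected; the grey band spans the lowest detected signals of the 8 arrays. Bmp4 is highest on both ESC arrays (10.79 and 9.56), Bmp7 on the 4 PGC arrays (7.34 to 8.16), and Id2, Id3 and Id4 are open circles on the wt day-15 array.

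Of the members over 2-fold apart between genotypes, more were lower than higher in Gcnf-deficient ESCs and day-12 PGCs, and more were higher than lower on day 15, although the median member was lower at each stage. After each count stands, in parentheses, the share of all genes that met the same rule in the same comparison. Undetected signals are taken at face value in these 2-fold counts and in those below. In ESCs, 12 of the 27 members detected on either array were over 2-fold apart (19.1% of all genes). Of these, 10 were lower in Gcnf-deficient cells (9.12% of all genes) and 2, Tdgf1 and Skil, higher (9.98% of all genes). Among the 10, Inhba, Tgfb3, Tgfbr2 and Fst were detected in wt ESCs and not in Gcnf-deficient ESCs. The fibroblast list summed to 23386 and 2968 on these arrays, and its part in the count was not tested. On day 12, 5 of 27 were over 2-fold apart (10.1% of all genes), 5 lower (5.42% of all genes) and 0 higher (4.65% of all genes), and on day 15, 12 of 26 (25.1% of all genes), 7 higher (13.7% of all genes) and 5 lower (11.4% of all genes). Some members were counted though their bound from detected signals was under 2-fold. These were Inhba and Fst in ESCs (at least 1.45-fold and 1.56-fold) and Inhbb and Tgfbr2 on day 12 (at least 1.78-fold and 1.20-fold). On day 15 they were Inhbb, Tgfbr2 and Id3 (at least 1.16-fold, 1.15-fold and 1.91-fold). Member medians were −0.27, −0.10 and −0.15 at the 3 stages, against −0.02, −0.01 and −0.08 over all genes.

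No member passed the test of genotype across stages (limma, 0 of 30 with an adjusted p under 0.05, against 0.0115% of all genes), and 5 had an unadjusted p under 0.05 (13.7% of all genes), namely Tdgf1, Inhbb, Bmp4, Tgfbr2 and Smad2. Inhbb differed by −1.43, −1.29 and −1.25 in ESCs, on day 12 and on day 15, a mean of −1.32 ± 0.26 (limma, adjusted p = 0.183). The same sign at all 3 stages was found for 9 of 33 members that were lower (27.3%, against 21.6% of all detected genes) and for 2 that were higher (6.06%, against 18.7%). The 9 were Inhbb, Bmp4, Acvr1, Acvr2a, Tgfbr1, Tgfbr2, Smad1, Smad2 and Smad5, and the 2 were Tdgf1 and Tgfb1, although Acvr2a and Tgfb1 were below detection on all 6 arrays. Smad1 differed by only −0.058, −0.018 and −0.10. Another Tgfbr1 probe was higher in Gcnf-deficient than in wt cells as ESCs (6.63 against 5.03) and on day 15 (6.71 against 5.84), and lower on day 12 (6.55 against 6.94). The plot of genotype differences shows the 3 stages apart.

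**Figure D4:**
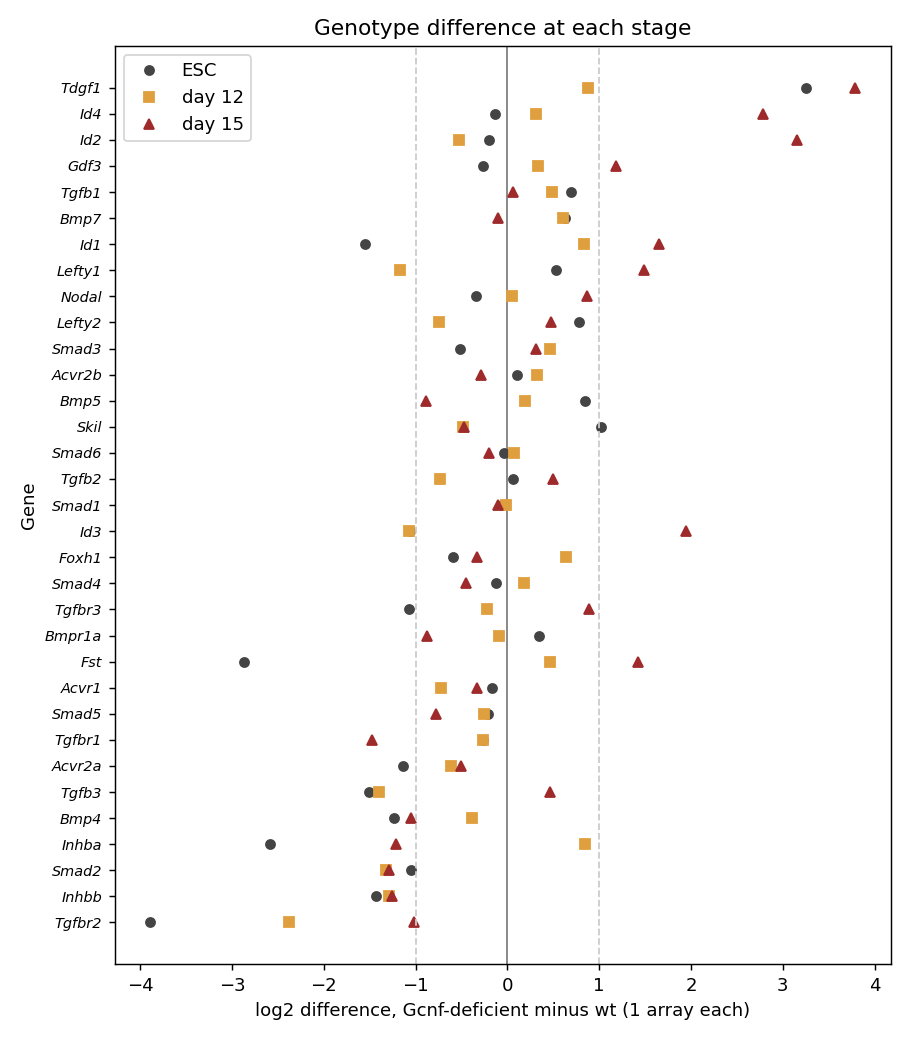
Difference in normalized log2 signal, Gcnf-deficient minus wt (x axis), for each of the 33 detected members (rows, ordered by the mean of the 3 stages) in ESCs (circles), on day 12 (squares) and on day 15 (triangles), 1 array on each side and no error; dashed lines mark 2-fold, and signals below detection are included. Tdgf1 lies furthest right at 3.25, 0.88 and 3.79, and the points of Inhbb and Smad2 all lie left of −1.

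ESCs and PGCs were compared within each genotype. The wt arrays were not alike in other ways: Y-linked genes summed to 3310 on day 12, against 83.7 in ESCs and 60.6 on day 15. Day and line therefore cannot be told apart in wt comparisons that use the day-12 array. The wt ESC array carried the fibroblast markers, and their part in the wt counts was not tested. In wt cells, 17 of 30 members were over 2-fold apart on day 12 against ESCs (24.3% of all genes), 10 higher (13.5% of all genes) and 7 lower (10.8% of all genes). On day 15 it was 16 of 28 (33.5% of all genes), 6 higher (17.7% of all genes) and 10 lower (15.7% of all genes). In Gcnf-deficient cells the counts were 10 of 27 on day 12 (14% of all genes) and 11 of 26 on day 15 (18.8% of all genes), with 8 (7.77% of all genes) and 9 (11.1% of all genes) of them higher in PGCs and 2 (6.21% of all genes) and 2 (7.74% of all genes) lower. From day 12 to day 15, 7 of 26 members were over 2-fold apart in wt PGCs (23.2% of all genes), with 7 lower (12.5% of all genes) and 0 higher (10.7% of all genes), and 2 of 25 were over 2-fold apart in Gcnf-deficient PGCs (4.84% of all genes), with 2 lower (1.87% of all genes) and 0 higher (2.97% of all genes). Tdgf1 was 9.66-fold lower on day 15 than on day 12 in wt PGCs.

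Across genotypes, Bmp4 and Inhbb passed the test of day 15 against ESCs (limma, 2 of 30, against 0.196% of all genes), both lower (0.0345% of all genes). At an unadjusted p under 0.05 there were 13, against 20.7% of all genes. On day 12 against ESCs 0 of 30 passed (limma, 0% of all genes), while 12 had an unadjusted p under 0.05, against 13.9% of all genes. From day 12 to day 15 also 0 of 30 passed (limma, 0% of all genes), with 4 at an unadjusted p under 0.05 (5.83% of all genes). Whether the step from ESC to PGC differed between genotypes was tested by an interaction, which 0 of 30 members passed (limma, 0% of all genes). At an unadjusted p under 0.05 there were 4 (6.18% of all genes), Tgfbr2, Id1, Fst and Skil, and the smallest adjusted p over all probes was 0.465. Id1 had an interaction of 2.79 ± 0.83 (limma, adjusted p = 0.682).

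EpiSCs differed from ESCs in ligands, receptors and Smads of both arms. Lefty1, Id2, Tgfb1, Nodal, Acvr2b, Smad6 and Smad5 rose, and Inhbb, Bmp4, Gdf3, Tgfbr2, Tgfb3, Bmp7 and Smad2 fell. That is 14 of 33 members past the threshold (limma, adjusted p under 0.05, against 25.5% of all genes), 7 higher (12.8% of all genes) and 7 lower (12.7% of all genes). Against day-15 PGCs 11 of 33 passed (limma, against 34.1% of all genes), 6 higher (16.3% of all genes) and 5 lower (17.8% of all genes), a share like that of all genes. Bmp4, Gdf3, Inhbb and Lefty1 against ESCs, and Bmp7, Gdf3, Inhbb, Lefty1 and Tgfb1 against day-15 PGCs, passed under every alternative run. The Inhbb call against day-15 PGCs rests on signals near or below the detection limit. Tdgf1, Smad3 and Skil did not pass against ESCs but did so with each other background correction (limma, adjusted p between 0.025 and 0.0461). Without the wt ESC array 9 members passed against ESCs, and without EpiSC replicate 1 or 2 it was 6 or 7. Against day-15 PGCs it was 5 without either EpiSC replicate. Compared with single arrays, the EpiSC mean was over 2-fold from wt ESCs in 17 of 31 members (37.4% of all genes), 10 higher (19.6% of all genes) and 7 lower (17.8% of all genes), and from Gcnf-deficient ESCs in 18 of 29 (34.6% of all genes), 13 higher (17.9% of all genes) and 5 lower (16.7% of all genes). From wt day-15 PGCs it was over 2-fold away in 13 of 30 (47.3% of all genes), 8 higher (23.1% of all genes) and 5 lower (24.2% of all genes).

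**Figure D5:**
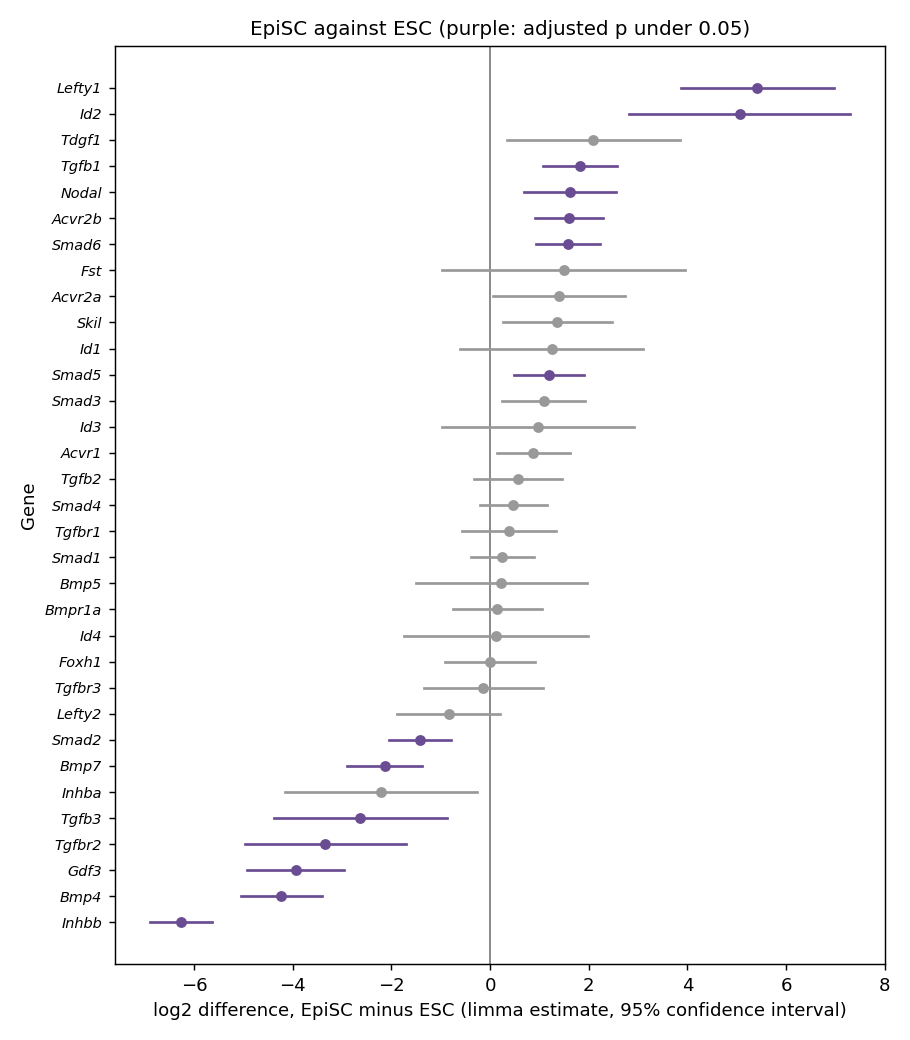
Estimated log2 difference between EpiSCs and ESCs at the wt genotype (x axis, limma estimate with its 95% confidence interval) for each of the 33 detected members (rows); purple marks an adjusted p under 0.05. Lefty1 at 5.42 and Inhbb at −6.27 are the ends of the range, with 7 purple genes on either side of 0.

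Other genes of the pathway were taken from a list of 79 further ligands, receptors, inhibitors, Smad regulators and targets, of which 35 were detected. In the fits over the 6 ESC and PGC arrays, 0 of 32 passed any contrast (limma). At an unadjusted p under 0.05 there were 9 for genotype (13.7% of all genes), 10 for day 12 (13.9% of all genes) and 11 for day 15 (20.7% of all genes) against ESCs, 4 for day 15 against day 12 (5.83% of all genes) and 4 for the interaction (6.18% of all genes). In EpiSCs against ESCs 7 of 35 rose (limma, 12.8% of all genes) and 5 fell (12.7% of all genes), and against day-15 PGCs 7 rose (16.3% of all genes) and 6 fell (17.8% of all genes). Target genes accounted for 4 of the 7 that rose over ESCs: Fgf5 and Eomes, markers of the primed epiblast, Gsc, a Nodal target of the organizer, and Msx1, a BMP target.

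Fgf5 was detected at 10.81 and 11.25 in EpiSCs and at 6.89 in wt day-12 PGCs only. Gsc gave 7.42 in PGCs of wt day 12, 7.41 in Gcnf-deficient day-12 PGCs, 6.87 and 7.97 on day 15, and 7.32 and 7.15 in EpiSCs, and was below detection in both ESCs. Smurf1, a ubiquitin ligase that degrades BMP Smads, ranged from 7.47 to 7.90 over the 4 PGC arrays and was below detection in EpiSCs, where it fell by 4.95 ± 0.30 against day-15 PGCs (limma, adjusted p = 0.000436). Eng (endoglin), a TGF-beta co-receptor, fell by 4.10 ± 0.39 in the same contrast (limma, adjusted p = 0.00156), from 8.35 and 8.51 in wt and Gcnf-deficient day-15 PGCs. It was not detected in EpiSCs, which were at least 5.22-fold below wt day-15 PGCs.

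Likewise Usp9x, which deubiquitinates Smad4, fell by 3.59 ± 0.49 in EpiSCs against ESCs (limma, adjusted p = 0.00553), and Amhr2, the receptor of anti-Müllerian hormone, fell by 3.26 ± 0.36 (limma, adjusted p = 0.00289). Neither was detected in EpiSCs, which were at least 4.02-fold below wt ESCs for Usp9x and at least 2.69-fold for Amhr2. Zeb2, a repressor that binds Smads, rose by 3.72 ± 0.45 (limma, adjusted p = 0.00373), detected in EpiSCs alone at 7.86 and 7.38. Nbl1, a BMP antagonist, was detected in wt ESCs at 6.61 and in EpiSCs at 7.63 and 7.93, Bmp1, a protease that cleaves the BMP antagonist chordin, was brightest in EpiSCs at 8.38 and 8.28, and Bmper, a modulator of BMP ligands, was detected in wt ESCs alone at 6.66. The Bmper signal stood on the array with the fibroblast markers, and their part in it was not tested. Rgma, a BMP co-receptor, gave 7.40 and 6.82 in day-12 PGCs and 6.93 and 6.59 in EpiSCs.

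The genes whose signals over the 8 arrays were most like those of the Nodal branch were found among all 8973 detected genes and are given as a description. For Nodal these were Clic6 (Pearson r = 0.994), Krt18 (0.977), Col18a1 (0.974), Cpne2 (0.970) and Gsc (0.950). For Tdgf1 they were Cox11 (0.991), Prpf6 (0.981), Cacybp (0.979), Snx5 (0.977) and Gm12657 (0.974). For Lefty1 they were Mup6 (0.990), Plxnb1 (0.982), Gigyf1 (0.981), Agap1 (0.976) and Pced1a (0.975), and for Lefty2 Dazap2 (0.992), Susd6 (0.990), Lima1 (0.979), Zfp750 (0.979) and Lgalsl (0.975). The 8 arrays come from 7 conditions, and 2 of them are the EpiSC pair.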

How the data were processed

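Gene expression was measured in 8 samples of 7 conditions. Signal intensities with a detection p-value for each probe and array are those that the authors read with BeadStudio 3.2 and deposited without normalization. The deposited value table holds log2 values that the authors made with the RMA background model and quantile normalization (lumi), and it was used as an alternative. From the intensities, the same steps were computed again in R 4.3.3 over all 25697 probes: the RMA background model array by array, the log2 scale, and then quantile normalization of all 8 (correlation of 0.998 with the deposited values). Of the probes, 23978 carried 1 gene symbol and 1719 none. The probe with the highest mean signal stood for a gene, and a detection p under 0.01 counted as detected. Between 38.7% and 43.9% of probes were detected on an array, and median raw signals ran from 138 to 189. The number of arrays limits the precision.

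Tests used limma 3.58.1 on probes detected on at least 1 array of the fit, with Benjamini-Hochberg adjustment over all probes. Genotype and stage were fitted together on the 6 ESC and PGC arrays (12717 probes, 2 residual degrees of freedom), and with the EpiSC pair on all 8 (13151 probes, 3 residual degrees of freedom). EpiSCs were compared with ESCs and with day-15 PGCs at the wt genotype of the latter fit. The interaction took days 12 and 15 together as PGCs. The fits were first run on simulated arrays with known changes, with noise drawn from the spread of the EpiSC pair. That noise may be smaller than the spread between stages or genotypes, so the run gives no error rate for these fits. A fold in which the dimmer side was not detected is given as "at least", against the higher of the lowest detected signal and the dim probe's own signal. Fitted differences take undetected signals at face value, so none of them is a bound. Single-array comparisons count genes detected on either side, and the counts take the undetected side at face value.

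The members, the lists and the tests were chosen with earlier results of these data known. Values on each array are given for members past the threshold in any fit or over 4-fold apart in any single-array comparison, and at most 12 other pathway genes are named, those with the largest single-array differences (Eomes was added after its values were seen). Alternatives were the deposited table, other background corrections (neqc, an offset of 50, none), median scaling, no detection filter, a detection p under 0.05, an intensity trend, no stage block, the 6 arrays normalized alone, the mean of a gene's probes, a 4-fold limit, and leaving out stages, EpiSC replicates or the Gcnf-deficient arrays. Leaving out the wt ESC or the wt day-12 array was added after seeing the data. Motifs were searched in RefSeq promoter windows (GRCm38.p6).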

Additional observations from a re-analysis of the deposited data

Results flagged for a closer look

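Gdf3, Bmpr1a and Id1 were detected on all 6 ESC and PGC arrays and moved one way from ESC to PGC on both days in wt cells and the other way on both days in Gcnf-deficient cells. This rule used signs only, with no limit on size, and the share of all genes that met it is not given. Gdf3 differed from its ESCs by −0.20 on day 12 and −0.66 on day 15 in wt PGCs, and by 0.40 and 0.79 in Gcnf-deficient PGCs. Bmpr1a differed by 0.089 and 0.77 in wt PGCs and by −0.35 and −0.45 in Gcnf-deficient PGCs. A second Bmpr1a probe gave 8.02, 7.33 and 8.15 in wt ESCs, on day 12 and on day 15, and 7.21, 6.81 and 6.64 in Gcnf-deficient cells, and so did not show the opposite directions on day 12. Id1 differed by −1.68 and −2.85 in wt PGCs and by 0.70 and 0.34 in Gcnf-deficient PGCs. The difference day by day was not tested, since each value rests on 1 array against 1 ESC array of its genotype. With days 12 and 15 treated as 1 state, the interaction of genotype with differentiation was not past the threshold for any member (limma, smallest adjusted p over all probes 0.465). The log2 differences of the EpiSC pair, the only measure of spread within a condition, had an SD of 0.26 over probes. The wt day-12 changes of Gdf3 (−0.20) and Bmpr1a (0.089) were smaller than that.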

How the results depend on the processing

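No result that was followed through the alternative runs reversed its sign. Of the member-level fits, only the 72 with an unadjusted p under 0.05 (limma) were followed. Of these fits under alternatives, 727 stayed on the same side of the threshold, 59 lost it and 46 gained it. The genotype count of 0 became 1 (Tdgf1, limma adjusted p = 0.034 and 0.023) with an offset of 50 and with an intensity trend. The day-12 count of 0 became 2 with neqc, 2 with an offset of 50 and 5 with a trend. The day-15 count of 2 became 4 with an offset of 50, 5 with a trend and 0 without the day-12 arrays, and leaving out the wt day-12 or the wt ESC array gave 0 or 2. Leaving out 1 array turned the 14 calls for EpiSCs against ESCs into 6 to 13 and the 11 against day 15 into 5 to 12. Without a detection filter 3 of the calls were lost in each of these contrasts. They were Nodal, Tgfb3 and Smad5 against ESCs (limma, adjusted p = 0.0503, 0.0584 and 0.0758). Against day 15 they were Tgfb2, Smad2 and Id1 (limma, adjusted p = 0.0897, 0.0585 and 0.0656). Median scaling lost Tgfb3 against ESCs and Tgfb2 and Id1 against day 15. An offset of 50 and no background correction each lost Bmp7 against ESCs and Tgfb2 against day 15, and an intensity trend lost Tgfb2 against day 15.

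Under a 4-fold limit the members apart numbered 4, 1 and 3 for genotype (ESC, day 12, day 15), 10 and 9 for wt days 12 and 15 against ESCs, 6 and 6 for Gcnf-deficient cells, 4 and 0 for day 15 against day 12 (wt, Gcnf-deficient), and 9 and 8 for EpiSCs against wt and Gcnf-deficient ESCs. Without background correction they were 4, 1 and 5 for genotype, 9 and 10 for wt against ESCs, 4 and 0 for day 15 against day 12, and 11, 10 and 8 for EpiSCs against wt ESCs, Gcnf-deficient ESCs and wt day 15. An offset of 50 gave 5, 1 and 7 for genotype, 0 for Gcnf-deficient day 15 against day 12, and 11 for EpiSCs against Gcnf-deficient ESCs. That Gcnf-deficient count was also 5 with no detection filter and 1 with neqc. The cause was not tested. The 4-fold counts also take undetected signals at face value. Inhba and Fst in ESCs and Tgfbr2 on day 12 were counted with bounds of at least 1.45-fold, 1.56-fold and 1.20-fold. Shares of all genes are given above for the main run and its 2-fold limit only. The counts in this section therefore have no background beside them. No paired analysis was possible because the groups compared share fewer than 2 replicate numbers, and the interaction could not be fitted without a whole stage or the wt ESC array.

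The lone array of each ESC and PGC condition is assumed to vary like the others, dim members such as Inhba, Bmp5, Acvr2a, Tgfb3 and Fst lie near the detection limit, and without background correction differences of dim genes shrink.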
